A study of Mus musculus with 4 samples.

Results

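The array carries probes that are named only by a stretch of mouse chromosome and, in all but 1 of their intervals, a strand letter, with no transcript accession, the form Agilent uses for probes to long intergenic noncoding RNAs. Of 4450 such region probes among 56605 non-control probes, 2202 were well above background on all 4 arrays and are the regions described here. They lie in 2060 distinct intervals, out of 4062 intervals with a probe, an interval being counted once for each strand. Intervals are told apart by their coordinates, and some overlap or lie inside another on the same strand. The RNA came from MC3T3-E1 cells, an osteoblastic line from mouse calvaria, in 4 groups with 1 Agilent one-colour array each. Besides Control, cells received 50 µM Miglustat, 10 µM D-PDMP or, in the last group, 1 µM D-PPMP. The inhibitor groups were treated for 4 days, and all cells were then replated and harvested after 24 h. Each compound blocks glucosylceramide synthase, which transfers glucose onto ceramide, and the series set out to find molecules under the control of that enzyme in osteoblasts. With 1 array per group there was no replicate error and no test was possible, so every difference below is between single arrays.

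Long intergenic noncoding RNAs are transcribed from DNA between protein-coding genes, are often spliced and polyadenylated like mRNAs, and carry no long open reading frame. As a class they are known to be less abundant than mRNAs and more restricted to particular cell types. Some act on chromatin or on neighbouring genes, and most have no known role. The intervals are given as the scanner files name them, on build mm9, and the final letter F or R is read here as forward or reverse strand, which the files do not explain. An interval is taken as the span of a transcription unit, the place of the probe inside it is not given, and no gene name was attached to any region, since none of these probes matched the gene table used for naming.

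The samples were first checked against marker genes. Of 10 osteoblast markers, 7 were well above background on all 4 arrays, among them Runx2, Col1a1 and Sparc, while Alpl and Ibsp were on none and Bglap on 2. Of 12 markers of blood, endothelium, fat, muscle and cartilage, 4 were well above background on all 4 arrays, namely Cd68, Pecam1, Col2a1 and Sox9. Ugcg, which encodes the inhibited enzyme, had log2 ratios to Control of 0.09, 0.08 and 0.00 for Miglustat, D-PDMP and D-PPMP, respectively. In bulk RNA, fewer cells making a transcript and less RNA per cell cannot be told apart. The 4 arrays shared 1 slide and each group had its own position on it, so an effect of position cannot be told apart from one of treatment.

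Region probes were detected less often than mRNA probes on every array. Of the 4450 region probes, the Control array detected 52.3%, and the Miglustat, D-PDMP and D-PPMP arrays 56.9%, 58.1% and 60.4%. The same shares of 29637 RefSeq mRNA probes (accessions starting NM_) were 67.8%, 69.6%, 69.9% and 71.0%, and those of 2477 RefSeq noncoding RNA probes (NR_) were 37.7%, 40.7%, 41.4% and 44.2%. Region probes thus lay between mRNA and curated noncoding RNA probes on all 4 arrays, and in each class Control was the lowest array and D-PPMP the highest. Detection on all 4 arrays was reached by 49.5% of region probes, 66.4% of mRNA probes and 35.3% of NR_ probes. Another 1540 region probes were well above background on none, and 708 on 1 to 3 arrays.

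**Figure D1:**
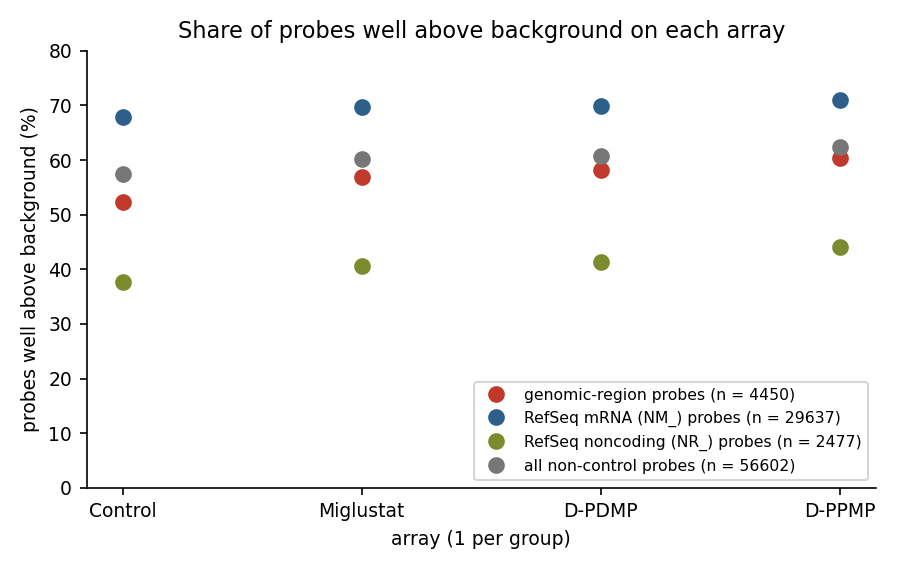
Percentage of probes well above background (y axis, from 0) on each array (x axis, 1 array per group) for region probes, RefSeq mRNA probes, RefSeq noncoding RNA probes and all non-control probes. Region probes go from 52.3% in Control to 60.4% with D-PPMP, below mRNA probes and above NR_ probes on every array.

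The 708 partly detected region probes leaned towards the inhibitor arrays. On all 3 inhibitor arrays but not in Control were 138 region probes (3.10%), and in Control alone 18 (0.404%). Over all 56602 probes the counts were 1001 (1.77%) and 184 (0.325%), and for mRNA probes 320 (1.08%) and 76 (0.256%), a lean of the same direction. The partly detected region probes sat near the limit of detection: the lowest signal of a member was between 4.63 and 4.91 on the 4 arrays, and the highest signal of a region probe not well above background was between 5.25 and 5.75. The median signal of the 708 probes was 3.86 in Control, and 4.85, 5.24 and 5.82 with Miglustat, D-PDMP and D-PPMP.

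Where a region probe was well above background on 1 of 2 arrays compared, its fold is a bound, the brighter level being set against the dim array's detection floor (its lowest detected signal) or against the dim probe itself, whichever is higher. On the inhibitor array but not in Control were 278, 339 and 405 region probes for Miglustat, D-PDMP and D-PPMP, or 6.25%, 7.62% and 9.1% of them, against 3.76%, 4.44% and 5.67% of all probes. For 7, 21 and 35 of them the bound was at least 2-fold, or 0.157%, 0.472% and 0.787% of region probes, against 0.164%, 0.281% and 0.399% of all probes. The share was thus no higher than that of all probes with Miglustat, and above it with D-PDMP and D-PPMP. The highest bounds were at least 4.68-fold higher with Miglustat at chr15:58985008-58985429 F, at least 7.55-fold higher with D-PDMP at chr10:92550314-92577555 F, and at least 3.44-fold higher with D-PPMP at chr11:31594719-31595201 F. Each of these 3 probes, chosen after their values were seen, was well above background on that array only.

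In Control but not on the inhibitor array were 72, 80 and 44 region probes (1.62%, 1.8% and 0.989%), against 1.04%, 1.07% and 0.749% of all probes. Of these 2, 5 and 3 had a bound of at least 2-fold (0.0449%, 0.112% and 0.0674%), against 0.0866%, 0.0954% and 0.083% of all probes, so these shares were near or below the background. Chosen likewise, chr1:23332602-23333197 F was well above background in Control alone, with a level of -3.05, and was at least 5.02-fold lower with Miglustat, at least 4.92-fold lower with D-PDMP and at least 4.90-fold lower with D-PPMP. The second of each set was chr7:77555482-77634858 F, also detected in Control alone, at least 2.82-fold, 2.75-fold and 2.75-fold lower in the same order. The other 3 regions with D-PDMP were chrX:120134722-120138152 R, chrX:7554567-7572017 F and chr4:44197185-44197997 R, at least 2.26-fold, 2.03-fold and 2.01-fold lower. The remaining region with D-PPMP was chr2:143988645-143993945 R, at least 2.07-fold lower. These comparisons share the 1 Control array, so a value that is off in Control moves all 3 ratios together.

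The intervals ranged from 62 to 538251 bp, and longer ones were detected more often. The median length was 11563.5 bp for intervals that held a member and 8295 bp for those that held none. A member was found in 37.9% of 940 intervals under 1 kb, 52.7% of 1057 intervals of 1 to 10 kb, 54.5% of 1269 intervals of 10 to 30 kb and 57.3% of 796 intervals of 30 kb and over. Levels followed the same order, with median levels of -3.10, -2.67, -2.50 and -2.27 in the same 4 classes, as log2 of the signal over the array's 75th percentile. The 2 strand letters were alike, with a member in 49.8% of F and 51.7% of R intervals. Among the chromosomes, the share of intervals with a member was highest on chromosome 17, where 143 of 215 intervals held one (66.5%), followed by chromosome 19 with 61.4%. It was lowest on chromosome 18 with 42.0%, and was 47.4% on the X chromosome.

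For 832 intervals the array holds probes on both strands. Members were found on both strands in 308 of them (37.0%), on a single strand in 343 (41.2%) and on neither in 181 (21.8%). Which strand of a pair is transcribed cannot be read from these values alone, because probes differ in affinity and each strand has its own probe. For the same reason the levels below compare classes of probes, not one probe with another.

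Members were dim. Their median level, log2 of the processed signal minus the array's 75th percentile, was -2.64 in Control, and -2.61, -2.62 and -2.54 with Miglustat, D-PDMP and D-PPMP. The 19680 mRNA probes well above background on all 4 arrays had medians of 0.64, 0.62, 0.63 and 0.61. The medians of the mean level over the 4 arrays differed by 3.23 on the log2 scale, or 9.38-fold, under the percentile scaling, and also by 3.23 after quantile normalization, which gives every array the same distribution. With normexp background correction the difference was 1.9974, or 3.99-fold, in the same direction. As processed signals, the medians of members were 29.3 to 32.4 and those of mRNA probes 285 to 293. The 874 NR_ probes detected on all arrays stood near the members, with medians from -2.22 to -2.11.

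The member and mRNA distributions overlapped widely. The quartiles of the members ran from -3.90 to -0.66 in Control, and those of mRNA probes from -1.75 to 2.73. Of the members, 347 (15.8%) lay above the mRNA median. When all 31514 probes detected on the 4 arrays were divided into 5 equal bins by mean level, the bins from dimmest to brightest held 830, 632, 383, 225 and 132 members, or 37.7%, 28.7%, 17.4%, 10.2% and 6.0% of them. mRNA probes were distributed the other way, with 12%, 15.3%, 21.3%, 26.4% and 25%.

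**Figure D2:**
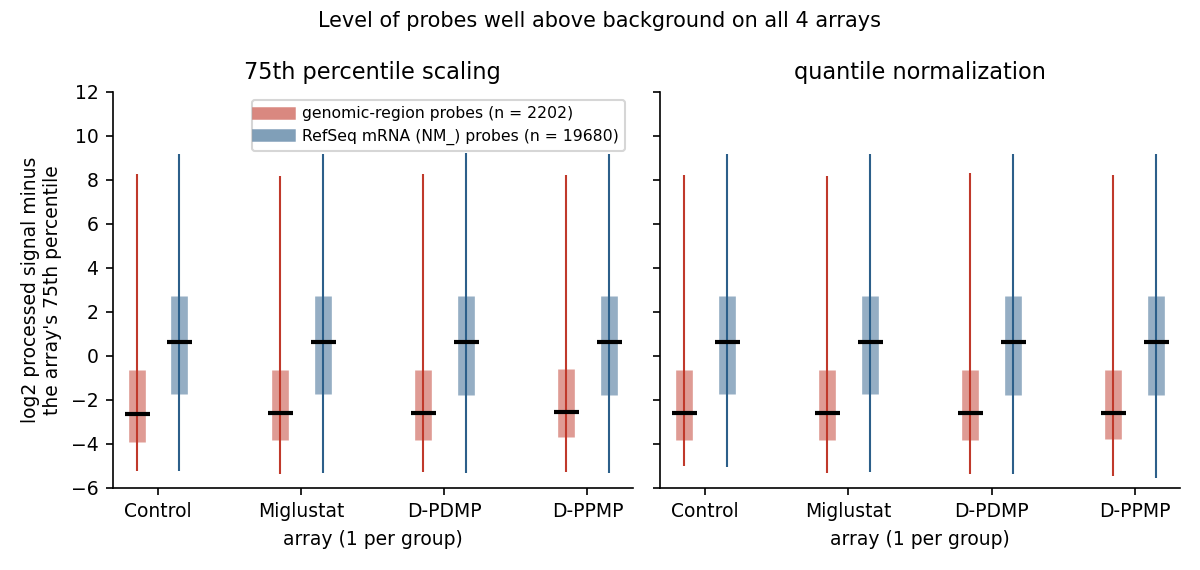
Level of members (n = 2202) and RefSeq mRNA probes (n = 19680) on each array, as log2 of the processed signal minus the array's 75th percentile (y axis), under percentile scaling and after quantile normalization. Boxes span the quartiles, black bars are medians and thin lines run from the lowest to the highest probe, so the medians near -2.6 and 0.6 stay apart on all 4 arrays under both scalings.

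The members with the strongest signals varied little between arrays. They are given in order of signal, which depends on each probe's affinity and is not an order of abundance. The first, chr17:17481706-17482457 R, an interval of 0.75 kb, had levels of 8.27 in Control, and 8.17, 8.29 and 8.21 with Miglustat, D-PDMP and D-PPMP. Next came chr11:22681800-22707775 R with 8.24, 8.17, 8.21 and 8.15 in the same order. The third was chr7:108209996-108216032 R with 7.98, 7.86, 7.88 and 7.84, and the fourth chr14:78924115-78938125 F with 7.81, 7.73, 7.79 and 7.86. The fifth was chr12:73838608-73862621 R with 7.57, 7.5, 7.56 and 7.68. Across these 5 regions no inhibitor array differed from Control by more than 0.15.

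The spread over the 4 arrays, which holds treatment, culture and measuring differences together, was larger for members than for mRNA probes under the percentile and quantile scalings, and smaller with normexp background correction. The SD of a probe's log2 level over the 4 arrays had a median of 0.154 for members, 0.092 for mRNA probes, 0.138 for NR_ probes and 0.110 for all probes. After quantile normalization it was 0.151 for members and 0.091 for mRNA probes. With normexp it was 0.0564 for members and 0.0629 for mRNA probes, but its offset of 50 shrinks the SDs of dim probes most. Most of the gap under the percentile scaling went with level, since dim probes of either class varied more. Within the 5 bins, from dimmest to brightest, the median SD was 0.238, 0.153, 0.095, 0.083 and 0.073 for members and 0.226, 0.136, 0.096, 0.075 and 0.064 for mRNA probes. At matched level the classes thus differed by at most 0.0163, against 0.0622 over all levels.

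**Figure D3:**
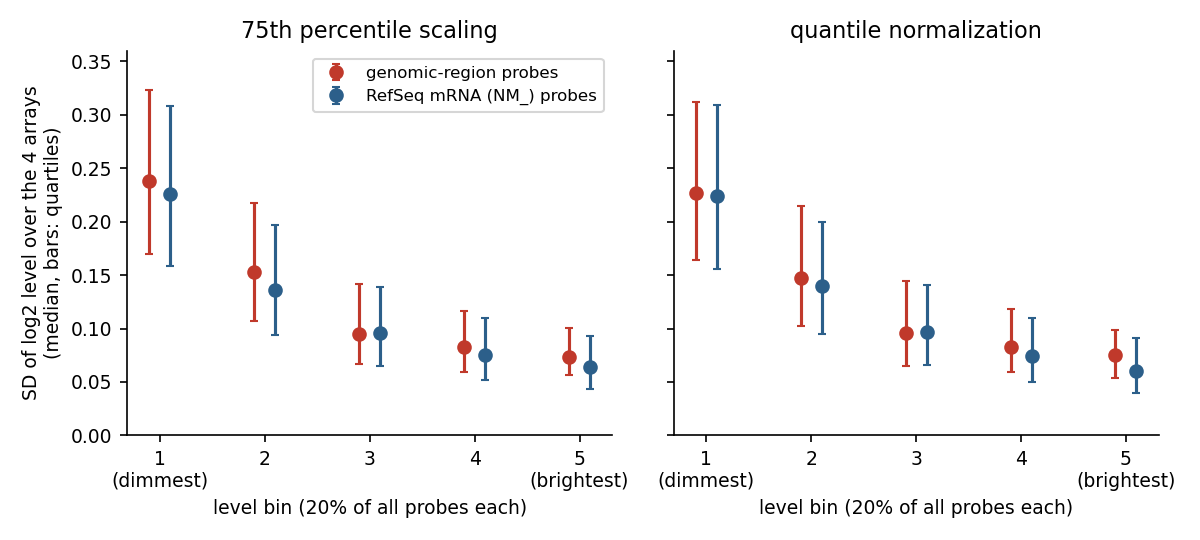
Median SD of the log2 level over the 4 arrays (y axis, bars are quartiles) for members and RefSeq mRNA probes in 5 bins of mean level holding 20% of all detected probes each (x axis), under percentile scaling and after quantile normalization. The SD falls from 0.238 to 0.073 for members and from 0.226 to 0.064 for mRNA probes, and the classes lie close together within each bin.

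Measuring error within an array was small for bright members and larger for dim ones. For 5 members in 4 intervals, all with levels over 6, the array held 10 spots each, and the SD of log2 signal over those spots was 0.0175 to 0.0642. Their log2 ratios to Control lay between -0.16 and -0.06 for Miglustat, -0.05 and 0.07 for D-PDMP, and -0.02 and 0.03 for D-PPMP, each with a standard error over spots of at most 0.026. For each of these 5 bright probes the Miglustat array was the lowest of the 4. In the brightest bin the median ratio with Miglustat was -0.07 for members and -0.04 for all probes. After quantile normalization these medians were -0.03 and -0.01. Over all members, the error of a log2 ratio that the scanner software gives had a median of 0.215. Neither error covers differences between cultures.

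Against Control, the median log2 ratio of the members was 0.01, 0.01 and 0.08 with Miglustat, D-PDMP and D-PPMP, under the percentile scaling. With D-PPMP, 63.6% of members were above Control, against 58.0% of NR_ probes, 55.1% of all probes and 48.1% of mRNA probes. The mRNA probes had a median of -0.01 with D-PPMP. After quantile normalization the members' medians were -0.03, -0.04 and -0.01, so the direction depended on the scaling with all 3 inhibitors. All 31514 probes together had medians of -0.01, 0.02 and 0.02 under the percentile scaling and -0.01, -0.01 and -0.01 after quantile normalization.

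The higher values of members with D-PPMP lay among the dim probes. From the dimmest to the brightest bin, the members' median ratios were 0.19, 0.12, 0.02, 0.00 and -0.00, and those of mRNA probes 0.12, 0.02, -0.01, -0.01 and -0.02. In the 2 dimmest bins NR_ probes had 0.12 and 0.09. Other accession classes were added after the data had been seen. Among them, model noncoding RNA probes (accessions starting XR_) had 0.21 and 0.08 there, while Ensembl and cDNA clone probes went further. Ensembl transcript probes had 0.25 in the dimmest and 0.13 in the middle bin, and cDNA clone probes (accessions starting AK) 0.25 and 0.16, so in these classes the higher values were not limited to dim probes. In the 2 dimmest bins members exceeded mRNA probes by 0.07 and 0.09, and by 0.06 and 0.08 after quantile normalization, where both classes shifted down. Of 10 spike-in probes, whose RNA is added in fixed amounts, 2 lay below the lowest member in Control. The dimmest of the other 8, at a Control level of -3.96, had a ratio with D-PPMP of 0.23, the next, at -1.47, had 0.07, and the 6 brightest had ratios between -0.09 and -0.01. The part of such a shift in the members' values was not tested.

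**Figure D4:**
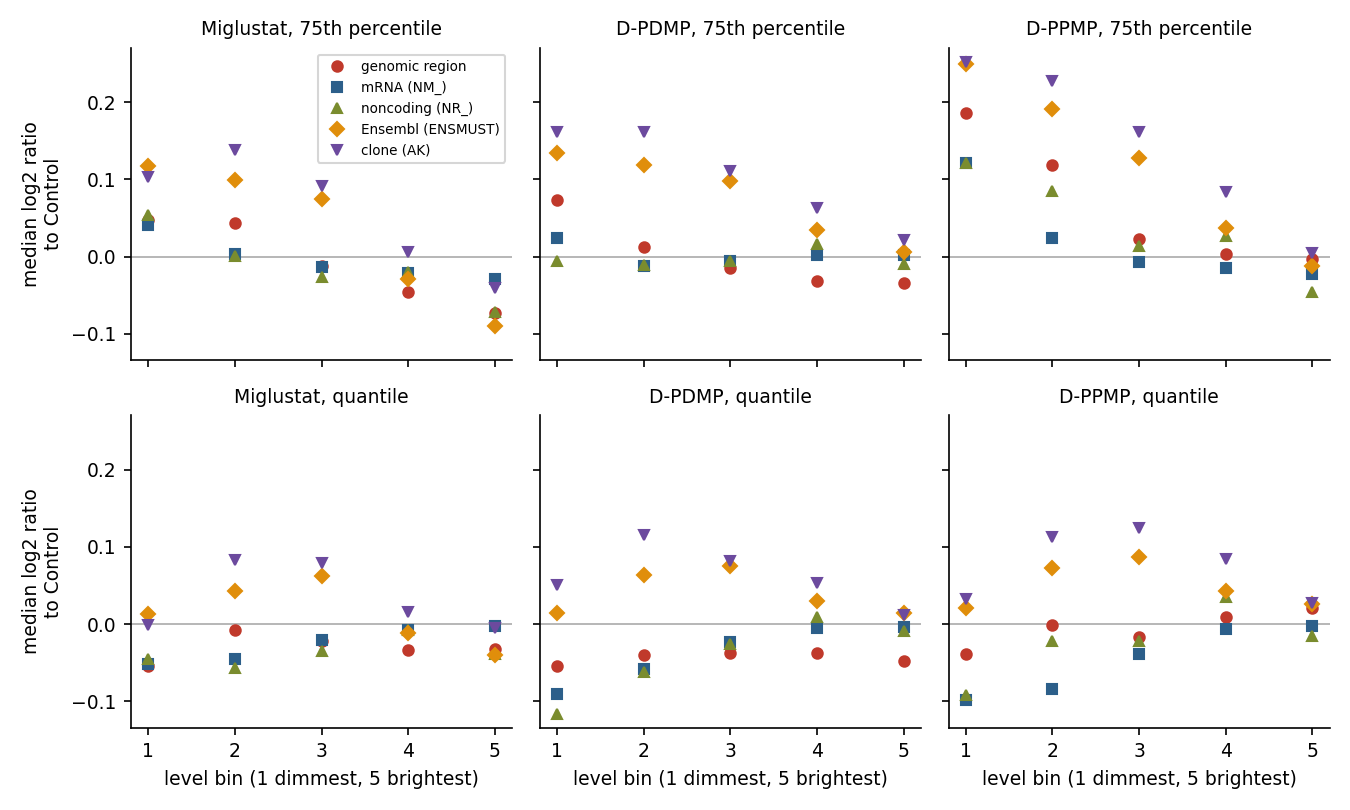
Median log2 ratio to Control (y axis) of members and 4 other probe classes in 5 bins of mean level (x axis, 1 dimmest), for each inhibitor, under percentile scaling (top) and quantile normalization (bottom). With D-PPMP under percentile scaling the members' medians go from 0.19 in the dimmest bin to -0.00 in the brightest, and after quantile normalization they lie between -0.04 and 0.02.

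Few members differed from Control by at least 2-fold. With Miglustat, 9 were higher (0.409%) and 6 lower (0.272%), against 0.203% higher and 0.127% lower among all 31514 detected probes. With D-PDMP, 11 were higher (0.5%) and 1 lower (0.045%), against 0.26% and 0.108%. With D-PPMP, 41 were higher (1.86%) and 2 lower (0.091%), against 0.67% and 0.143%. The members' shares of higher calls were thus above the background in each comparison, but so was their share of dim probes. Of the 43 members called with D-PPMP, 34 were in the dimmest bin and 40 in the 2 dimmest. Of the 256 calls over all probes with D-PPMP, 165 were in the dimmest bin and 227 in the 2 dimmest, so calls crowded there in general. Within the dimmest bin, 3.98% of members and 2.25% of all probes were at least 2-fold higher with D-PPMP. After quantile normalization these shares were 0.964% and 0.65%, so most of the gap went with the scaling.

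After quantile normalization, 39 members were called with at least 1 inhibitor, and calls with D-PDMP and D-PPMP were more evenly divided between higher and lower. With Miglustat 6 members were higher and 7 lower, against a background of 0.136% higher and 0.162% lower. With D-PDMP 7 were higher and 8 lower, against 0.124% and 0.213%. With D-PPMP 11 were higher and 5 lower, against 0.241% and 0.333%. Under the percentile scaling 59 members were called with at least 1 inhibitor, and 30 of them were also called after quantile normalization. These counts over any inhibitor were made for members only, so no share of all probes stands beside them. Each called member lay in a different interval within a comparison. All calls exceeded 2 times the scanner software's error of the ratio. So did all 104, 116 and 256 calls over all probes with Miglustat, D-PDMP and D-PPMP under the percentile scaling. A 2-fold call thus passed this limit in any case, and the limit lends the members' calls no support. Just inside and outside the limit, the higher ratios were 1.02 and 0.993 with Miglustat. They were 1.01 and 0.994 for D-PDMP, and 1.004 and 0.998 for D-PPMP. The lower ones were -1.02 and -0.99, -1.08 and -0.98, and -1.03 and -0.90.

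The single member at least 2-fold higher with all 3 inhibitors was chr3:131128972-131163308 R, and none was lower with all 3. Its levels were -4.63 in Control, and -3.35, -3.04 and -3.27 with Miglustat, D-PDMP and D-PPMP. All 3 inhibitor arrays were high and Control low, with log2 ratios of 1.28, 1.59 and 1.36, and of 1.14, 1.46 and 1.14 after quantile normalization. It is in the dimmest bin, and it was chosen after its values were seen. How many of all probes were higher with all 3 was not counted.

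The highest ratios of all also belonged to dim regions, picked here from the seen values. With Miglustat the highest was chr14:79724027-79729152 F, with levels of -4.76, -2.84, -4.23 and -3.54 in the order Control, Miglustat, D-PDMP and D-PPMP and a ratio of 1.93. With D-PDMP it was chr3:85571525-85645700 F, with levels of -4.72, -4.38, -2.32 and -3.53 and a ratio of 2.39. With D-PPMP it was chr14:55671783-55680316 R, with levels of -4.00, -4.05, -4.11 and -2.42 and a ratio of 1.58. In each of these regions the array with the highest level stood at least 0.71 above the next.

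The single member at least 2-fold lower with D-PDMP was chr2:157361470-157379813 R, with levels of -3.52, -3.54, -4.60 and -4.03 and a ratio of -1.08. Of the 2 lower with D-PPMP, one was chr10:3227840-3233588 R, with levels of -3.53, -4.63, -4.44 and -4.57. It was low on all 3 inhibitor arrays, at ratios of -1.09, -0.91 and -1.03. The other was the brighter chr6:126766225-126771309 F, given below. After quantile normalization both were among the 5 lower members, with the dim chr6:3333825-3349525 F, chr17:56791549-56803877 F and chr1:137689555-137692960 R at -1.07, -1.03 and -1.02.

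Only 8 of the 59 called members were at or above the members' median level of -2.60, where 1101 members lie. The regions of the next paragraphs are from that brighter group. With normexp background correction no member was called, brighter ones included. Its offset of 50 shrinks the ratios of dim probes, so the absence of calls cannot decide whether the dim calls hold. The first set was higher on all 3 inhibitor arrays. At chr7:99879368-99889978 R, an interval of 10.6 kb, levels were -2.85 in Control, and -1.83, -2.01 and -1.89 with Miglustat, D-PDMP and D-PPMP. Control was the low array and the inhibitor arrays lay close together, with ratios of 1.02, 0.84 and 0.96, of which the first reached 2-fold. After quantile normalization that ratio was 0.95, so the call ended. With normexp background correction the 3 ratios were 0.25, 0.26 and 0.34.

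At chr2:128211990-128215223 R, an interval of 3.2 kb, levels were 0.74 in Control, and 1.44, 1.62 and 1.83 with Miglustat, D-PDMP and D-PPMP. Control was again lowest, and the ratio with D-PPMP was 1.09, or 1.1 after quantile normalization. The next detected interval on the same strand, chr2:128217275-128217972 R, begins 2051 bp beyond its end. There levels were -2.20, -1.68, -1.40 and -1.17, in the same order of arrays, and the ratios were 0.52, 0.81 and 1.03, the last being 0.94 after quantile normalization, below the limit. Among 100 pairs of neighbouring members on one strand within 10 kb, 8 held a called member, and this was the one pair, picked after its values were seen, in which both were called the same way. Whether the 2 intervals belong to one transcript is not given by the files.

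A similar order was seen at chr17:3346621-3347209 F, an interval of 0.59 kb, with levels of 1.09, 1.58, 1.90 and 2.16 and a ratio with D-PPMP of 1.06. At chrX:18734106-18744367 R levels were -2.58, -2.17, -1.69 and -1.42, and the ratio with D-PPMP was 1.15. At chr13:97700327-97700876 F they were -3.08, -2.90, -2.33 and -2.05, with a ratio of 1.03 with D-PPMP that was 0.91 after quantile normalization. With normexp the ratios with D-PPMP at these 3 regions were 0.98, 0.52 and 0.33. In each of these 3 regions Control was the lowest array and D-PPMP the highest. Because the doses of the compounds differed, this order is not a comparison between compounds.

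Several more of the brighter regions stood above Control on every inhibitor array without reaching 2-fold. At chr9:13349094-13352732 F levels were -1.52, -0.76, -0.94 and -0.54, with ratios of 0.76, 0.58 and 0.98. At chrX:11671249-11671715 R they were -3.01, -2.47, -2.10 and -2.05, and at chr2:48826955-48827592 F -2.80, -2.08, -2.09 and -1.86. At chr1:69531191-69570566 R, an interval of 39.4 kb, they were -2.47, -1.54, -1.90 and -1.80, with the Miglustat array highest at a ratio of 0.93. These regions were picked by their ratios and each group is 1 array, so this order is not a separation of groups. With normexp the highest ratio of each region was smaller, at 0.57, 0.30, 0.32 and 0.37, and still above 0.

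The named brighter regions below Control came next. At chr6:126766225-126771309 F levels were 0.13 in Control, and -0.73, -0.41 and -0.996 with Miglustat, D-PDMP and D-PPMP. All 3 inhibitor arrays were low, with ratios of -0.86, -0.55 and -1.13, of which the last reached 2-fold under the percentile scaling and after quantile normalization (-1.17). At chr3:127170996-127201096 F, an interval of 30.1 kb, levels were -0.89, -2.01, -1.87 and -1.12. The Miglustat and D-PDMP arrays were low, with ratios of -1.12 and -0.98, and the D-PPMP array stood near Control at -0.23. The scanner software's errors of the 3 ratios were 0.28, 0.29 and 0.25, above the median of 0.215 over all members. With normexp background correction the first 2 of these ratios were -0.46 and -0.48 and the last changed sign, to 0.09.

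At chr16:30200995-30205965 R levels were -0.58, -0.83, -0.99 and -1.29, and the ratio with D-PPMP was -0.71. At chr17:80133213-80144417 F they were -1.92, -2.03, -2.64 and -2.56, so that D-PDMP and D-PPMP were low and Miglustat was near Control. Lower on all inhibitor arrays by smaller amounts were chr7:118248833-118267766 F at -0.33, -0.37 and -0.39, chr2:168812065-168812873 F at -0.42, -0.45 and -0.32, and chr9:61076051-61076314 R at -0.34, -0.39 and -0.30. At chr9:96664617-96683617 F the ratios were -0.08, -0.62 and -0.25. At chrX:45814752-45816313 R they were -0.67, -0.13 and -0.09, with the Miglustat array lowest. None of these 7 reached 2-fold, and with normexp all their ratios kept their sign and lay between -0.46 and -0.03.

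In a last set the inhibitor arrays lay on both sides of Control. The brightest was chr1:160888257-160910594 R, an interval of 22.3 kb, with levels of 2.97 in Control, and 3.54, 2.23 and 2.07 with Miglustat, D-PDMP and D-PPMP. Its ratios were 0.57, -0.74 and -0.90, with a scanner error of 0.20 for the last, and they kept their sign after quantile normalization at 0.59, -0.74 and -0.89. At chrX:165792277-165807952 F levels were -1.83, -1.01, -2.08 and -2.08, so that only the Miglustat array was above Control. The dim chrX:165758353-165806110 F, which overlaps it and was picked from the seen values, had ratios of 1.07, -0.27 and -0.19. At chr1:175705225-175717250 R levels were -1.90, -2.57, -1.49 and -1.72, with the Miglustat array lowest. At chrX:165792277-165807952 F and chr1:175705225-175717250 R the Miglustat ratios of 0.82 and -0.67 were 0.39 and -0.28 with normexp. Doses differ, and no difference between compounds was tested.

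**Figure D5:**
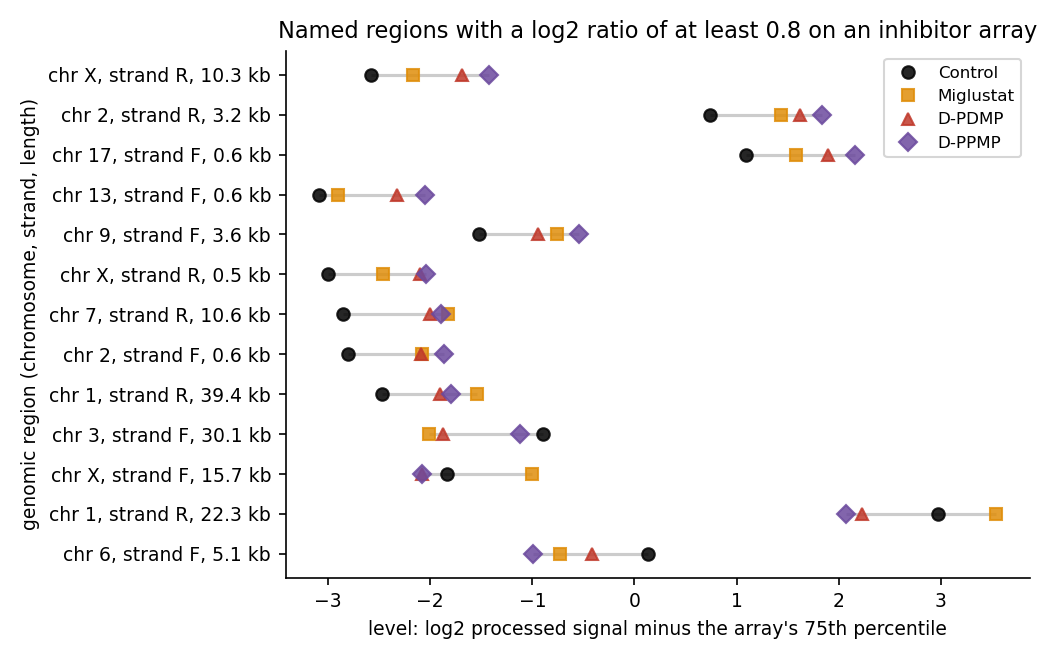
Level on each array (x axis, log2 of the processed signal minus the array's 75th percentile) for the 13 named brighter regions with a log2 ratio of at least 0.8 in size on an inhibitor array, each labelled by chromosome, strand letter and length. Points are single arrays, and Control is leftmost in the 9 regions that were higher on all inhibitor arrays, rightmost in the regions of chromosomes 3 and 6, and between the inhibitor arrays in those of chromosome 1 (22.3 kb) and X (15.7 kb).

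Probes that share an interval are not replicates of a condition, and whether they share a transcript is not known. Pairs of members in one interval and strand differed in level by a median of 1.53, against 2.01 for all pairs of members. Their ratios are therefore only set side by side. In 127 intervals at least 2 members were found, and at most 4. Over the 159 pairs of members in one interval and strand, the ratios to Control differed by a median of 0.152, 0.175 and 0.177 with Miglustat, D-PDMP and D-PPMP. For the 71 pairs with both probes at or above the median level these were 0.087, 0.095 and 0.112. All pairs of members differed by medians of 0.239, 0.263 and 0.285, and all pairs at or above the median level by 0.163, 0.169 and 0.194. Of the 159 pairs, 6 held a called member, and in none of them was the other probe of the pair called the same way. The 100 neighbouring pairs within 10 kb differed by 0.239, 0.293 and 0.233, near the values of all pairs.

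The named intervals among those with the most members held both like and unlike ratios. At chr6:116123643-116124550 F, an interval of 0.91 kb with 3 bright members, the levels in Control were 6.5, 6.97 and 7.27. All 9 ratios there lay between -0.13 and 0.07. Other intervals, not given here, also held 3 members. At chr17:29374758-29387733 F, with 4 members, the ratios with D-PPMP were 0.19, -0.60, 0.41 and 0.24 for probes with Control levels of 2.56, -4.50, -4.33 and -2.49, so the dim probes differed in sign. Inside it lies the separately named chr17:29378878-29379589 F, picked from the seen values. Its dim member had a Control level of -4.93 and a ratio with D-PPMP of 1.05. At chr3:87757295-87774970 R, also with 4 members, the ratios with Miglustat were 0.03, -0.37, -0.18 and -0.34, and with D-PPMP 0.11, 0.13, 0.16 and -0.26.

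The 3 intervals with members on both strands that were brightest by the level of the dimmer strand differed little from Control on either. At chr12:73838608-73862621 the F probe had levels of 7.15, 7.06, 7.04 and 7.16, next to the R probe given above. At chr7:108209996-108216032 the 2 F probes had ratios between -0.05 and -0.02, and the R probe between -0.15 and -0.11. At chr17:35080914-35090009 the F probe had ratios of 0.11, 0.13 and 0.03, and the 2 R probes lay between -0.13 and 0.13. All ratios in these 3 intervals were within 0.15 of 0.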

How the data were processed

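Total RNA was labelled with Cy3 and hybridised to Agilent arrays, 1 per group. Per the file headers, each deposited scanner file gives processed intensities made by Agilent Feature Extraction 12.1.1.1, with background corrected but arrays left unscaled to one another. The authors' deposited table holds log2 values that differ by at most 0.0147 from those used here for the members, so it is on the same scale and direction, with no centring on genes. Medians of its columns came to -4.1, -4, -4 and -3.89.

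Control and outlier spots were left out, log2 processed signals were averaged over a probe's spots, and the array's 75th percentile was subtracted. Of 56605 probes, 56602 had a value on every array. Quantile normalization used limma 3.58.1 in R 4.3.3. A probe was called at 2-fold between 2 arrays. The number of arrays limits the precision, and no p-value was computed. The procedure was checked on simulated data with noise of the size of the members' own spread. That check cannot show how many of the calls here hold. No probe sequence or mm9 genome was used here, so no sequences are printed. Coordinates are those of the files.

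Named regions, none on chromosome 18 and with the brightest probe of an interval except in the last 2 sets, are the 5 brightest members, the 4 highest and 4 lowest ratios for each inhibitor and for all 3 by the least extreme ratio, among members at or above the median level, the 3 intervals with most members, and the 3 with members on both strands whose dimmer strand was brightest. The members, lists and rule were chosen with earlier results of these data known. Other regions are marked as chosen after their values were seen.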

Additional observations from a re-analysis of the deposited data

How the results depend on the processing

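No paired analysis was possible because each group has 1 array. With quantile normalization, members higher and lower by at least 2-fold were 7 and 8 with D-PDMP and 11 and 5 with D-PPMP, and the median log2 ratios turned to -0.0431 and -0.0084. With cyclic loess they were 7 and 5 with D-PDMP and 13 higher with D-PPMP, whose median was 0.0055. With normexp (offset 50, on the median spot signal in place of the mean), all 6 counts were 0, the D-PPMP median was 0.0029, the levels were -1.4945 for members and 0.5029 for mRNA probes, their difference 1.9974, and the SD 0.0564 for members, below the 0.0629 of mRNA probes. With no filter on signal, higher and lower counts were 279 and 130, 376 and 127, and 506 and 83 for Miglustat, D-PDMP and D-PPMP. With members at or above the median level they were 1 and 1, 0 and 0, and 5 and 1, with a D-PPMP median of 0.0274, and at a 1.5-fold limit 90 and 25, 128 and 43, and 224 and 20. Taking ratios relative to mRNA probes of the same level bin, an alternative chosen after seeing the data, left 26 higher with D-PPMP. Apart from quantile normalization, these counts were made for members only. Without a share over all probes they show nothing particular to members. With the 75th percentile of detected probes the levels were -4.7275 for members and -1.4974 for mRNA probes. With 1 probe per accession the mRNA level was 1.2489, and with also 1 member per interval the difference was 3.8352. The other 81 values stayed within 1.5 times for counts, 0.046 for median ratios and 0.0325 for levels and SDs. By construction the normexp offset of 50 compresses levels and shrinks the ratios and SDs of dim probes. Its share in the normexp moves and the cause of the other moves were not tested.

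Limits: with 1 array per group, culture, slide position and treatment cannot be told apart, and 48 of the 59 called members are in the dimmest bin, where dim probes vary most.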
